A study of Caenorhabditis elegans with 34 samples.

Results

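The genes described here encode parts of the machinery that starts, processes and ends transcription by RNA polymerase II in the nematode Caenorhabditis elegans. They were taken as every probe whose gene symbol, updated by gene ID in a reference gene table, starts with gtf- or is rpap-2 or ints-7. This rule was chosen with earlier results of these data known. The rule found 8 genes, each with 1 probe, among 5543 genes named on the arrays, of which 949 had a gene-class symbol. Messenger RNA was measured on 34 spotted arrays that each set a red channel against a green one. On 29 arrays RNA of glp-4(bn2) worms, which the labels call worms with no germ line, or of wild-type (N2) worms was hybridised against a pool of reference RNA. The glp-4 groups had 3 arrays at larval stage L2, 4 at L3, 4 at L4 and 4 of young adults, and the wild-type groups had 3, 4, 4 and 3 arrays at the same stages. The 5 remaining arrays compared RNA of fem-3(q23) worms (red) and fem-1(hc17) worms (green). The fem-3(q23) allele is a temperature-sensitive gain of function that keeps the germ line making sperm, and the fem-1(hc17) allele loses function at high temperature, which leaves the germ line making only oocytes; the soma is female in both. Per the labels both fem strains were grown at the temperature at which they are fertile, and neither a shift to the restrictive temperature nor the growth temperature of the glp-4 and wild-type worms is given in the labels.

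To start a transcript, RNA polymerase II assembles at a promoter with the general transcription factors. TFIIF enters with the polymerase, TFIIE joins and recruits TFIIH, and TFIIH opens the DNA and phosphorylates the polymerase tail; TFIIH also serves in DNA repair. RPAP2, known from human cells, removes phosphate from that tail and takes part in bringing the polymerase into the nucleus, and Integrator is a complex bound to the polymerase that cuts the ends of small nuclear RNAs and ends transcription near promoters. A germ line that makes oocytes loads them with messenger RNA that the early embryo uses before it transcribes its own genome, and chromosomes in maturing sperm are compacted and transcriptionally quiet.

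The TFIIH genes were gtf-2H1 on chromosome IV (locus tag CELE_R02D3.3), gtf-2H2C on III (CELE_T16H12.4) and gtf-2H3 on III (CELE_ZK1128.4). The TFIIE genes were gtf-2E1 on IV (CELE_ZK550.4), which encodes the large subunit, and gtf-2E2 on II (CELE_F54D5.11), which encodes the small one. The large TFIIF subunit was represented by gtf-2F1 on II (CELE_C01F1.1), the Integrator subunit by ints-7 on II (CELE_D1043.1) and RPAP2 by rpap-2 on III (CELE_R08D7.2). By the order of genes in the reference, 8 protein-coding genes lie between gtf-2H2C and gtf-2H3, and 13 lie between gtf-2E2 and ints-7; the other members are at least 267 protein-coding genes apart or on different chromosomes. Of the 29 reference arrays, gtf-2E1, gtf-2E2, gtf-2H3, ints-7 and rpap-2 had a value on all 29 and gtf-2H2C on 28. Only 16 held a value for gtf-2H1 and 14 for gtf-2F1, and the values of these genes scattered between -4.43 and 4.73, so they are described apart.

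All values are log2 ratios, of worm RNA over the reference pool or of fem-3 over fem-1 RNA. They are relative to the other RNA on the same probe, so ratios of different genes are not levels to be ranked, and the base of the logarithm is taken as 2 without being stated in the sources used here. A gene is called lower or higher where limma's adjusted p is under 0.05, with p-values adjusted by Benjamini-Hochberg over all probes tested. Arrays held 10155 to 13295 values, and intensities were not analysed here. Replicate numbers of the reference arrays are worm batches per the labels, with batches 2 and 4 combined in glp-4 L2 replicate 2, and nothing says whether the fem arrays came from separate cultures, so their p-values measure the spread between these arrays only. Titles name the reference as a mixed control on all adult arrays and as REF-vjr on all L2 arrays, while at L3 and L4 each strain had 2 arrays of each wording. Labels of 4 arrays disagree within themselves: wild-type L4 replicates 1 and 4 and glp-4 L2 replicate 1 carry a different stage in another field, and glp-4 adult replicate 1 has a time code unlike that of the other adults in its title.

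The strain labels were checked against marker genes, which also moved with the results below. The arrays held 7 of 33 listed germline genes, 10 of 35 sperm genes and 2 of 25 oocyte genes. These lists were chosen with earlier results of these data known, so the check is not independent of the data. Of 7 germline genes (mip-1, mip-2, lotr-1, pid-3, syp-6, nse-4 and tost-1), 7 were lower in glp-4 adults than in wild-type adults, 6 at L4, 4 at L3 and 0 at L2. Their mean log2 ratio ran from -2.32 to -1.58 in glp-4 adults, against 0.48 to 0.90 in wild-type adults. Over all probes tested, 20.3% were lower in adults and 11.8% at L4, and 3.23% at L3 and 0.419% at L2 were called in either direction. Of 10 sperm genes, 10 were higher in fem-3 than in fem-1 worms, 2 of 2 oocyte genes (memi-3 and oops-1) were lower, and 5 of the 7 germline genes were lower. Of all 13284 probes tested there, 2555 were higher and 2058 were lower. Ratios have no true 0, so no marker could be called absent, and the part of germline content in any difference below was not tested. RNA came from whole worms, so fewer germ cells and less RNA per cell cannot be told apart.

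In young adults, 5 of the 8 genes were lower in glp-4 than in wild-type worms, of 7 that could be tested, and none was higher. Over all 11402 probes tested in adults, 20.3% were lower. All members have a gene-class symbol, and of the 826 probes with such a symbol tested in adults, 239 were lower. The median log2 difference was -1.13 over the 7 tested members and 0.17 over all probes tested. The differences were between -2.05 and -1.71 for ints-7, rpap-2 and gtf-2H3, and -1.13 and -0.76 for gtf-2H2C and gtf-2E1.

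The Integrator gene ints-7 had log2 ratios of -1.37, -1.28, -1.60 and -0.85 in glp-4 adults, against 1.23, 0.12 and 0.97 in wild-type adults. No glp-4 adult reached the lowest wild-type array, and ints-7 differed by -2.05 ± 0.28 (SE, n = 4 and 3; limma, adjusted p = 3.28e-06). For rpap-2, the polymerase phosphatase gene, the ratios were -0.87, -1.49, -1.49 and -1.51 in glp-4 adults, against 0.26, 0.29 and 0.76 in wild-type adults. Groups without overlap in this direction made up 19.3% of the probes tested in adults. The difference for rpap-2 was -1.78 ± 0.23 (SE; limma, adjusted p = 1.40e-06). The glp-4 adult nearest to wild type for rpap-2 was replicate 1, the array with the deviating time code, and without it and the other 3 arrays of disagreeing labels the difference was -1.93 (limma, adjusted p = 1.50e-06).

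Among the TFIIH genes, gtf-2H3 had ratios of -1.12, -2.19, -1.52 and -1.63 in glp-4 adults, against 0.17, -0.27 and 0.38 in wild-type adults. Its difference was -1.71 ± 0.23 (SE; limma, adjusted p = 2.42e-06), with no overlap between the groups. The ratios of gtf-2H2C were -0.64, -1.303, -1.07 and -1.47 in glp-4 adults, against 0.16, -0.43 and 0.29 in wild-type adults, a smaller gap of -1.13 ± 0.21 (SE; limma, adjusted p = 1.61e-04) in which the highest glp-4 array still lay below the lowest wild-type array. The third TFIIH gene, gtf-2H1, had a value of -3.69 on 1 glp-4 adult array and of -0.22 and -2.32 on 2 wild-type adult arrays, and was not tested.

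Of the TFIIE subunits, 1 was called in adults. The large-subunit gene gtf-2E1 had ratios of -1.18, -0.69, 0.06 and -0.71 in glp-4 adults, against -0.07, -0.10 and 0.57 in wild-type adults. Here glp-4 replicate 3 lay within the wild-type range, and the difference was -0.76 ± 0.20 (SE; limma, adjusted p = 0.00435). That call rested on wild-type replicate 4, without which the difference was -0.54 (limma, adjusted p = 0.0548), and a fit of the adult arrays alone gave an adjusted p of 0.129. The small-subunit gene gtf-2E2 had ratios of 0.32, -0.55, -0.71 and 0.37 in glp-4 adults, against 0.19, 0.48 and -1.92 in wild-type adults. Its groups overlapped across their whole range, and its difference of 0.28 ± 0.39 (SE; limma, adjusted p = 0.606) has a 95% interval of -0.53 to 1.08. The adult difference of gtf-2E1 minus that of gtf-2E2 was -1.04, and it did not pass an exact two-sided permutation test over the 7 adult arrays (p = 0.4). For gtf-2F1, the TFIIF gene, 3 glp-4 adults had -0.24, -0.00 and -1.73 and 2 wild-type adults had -2.83 and 2.22, so that the difference of -0.35 ± 1.89 (SE; limma, adjusted p = 0.904) says little in either direction.

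**Figure D1:**
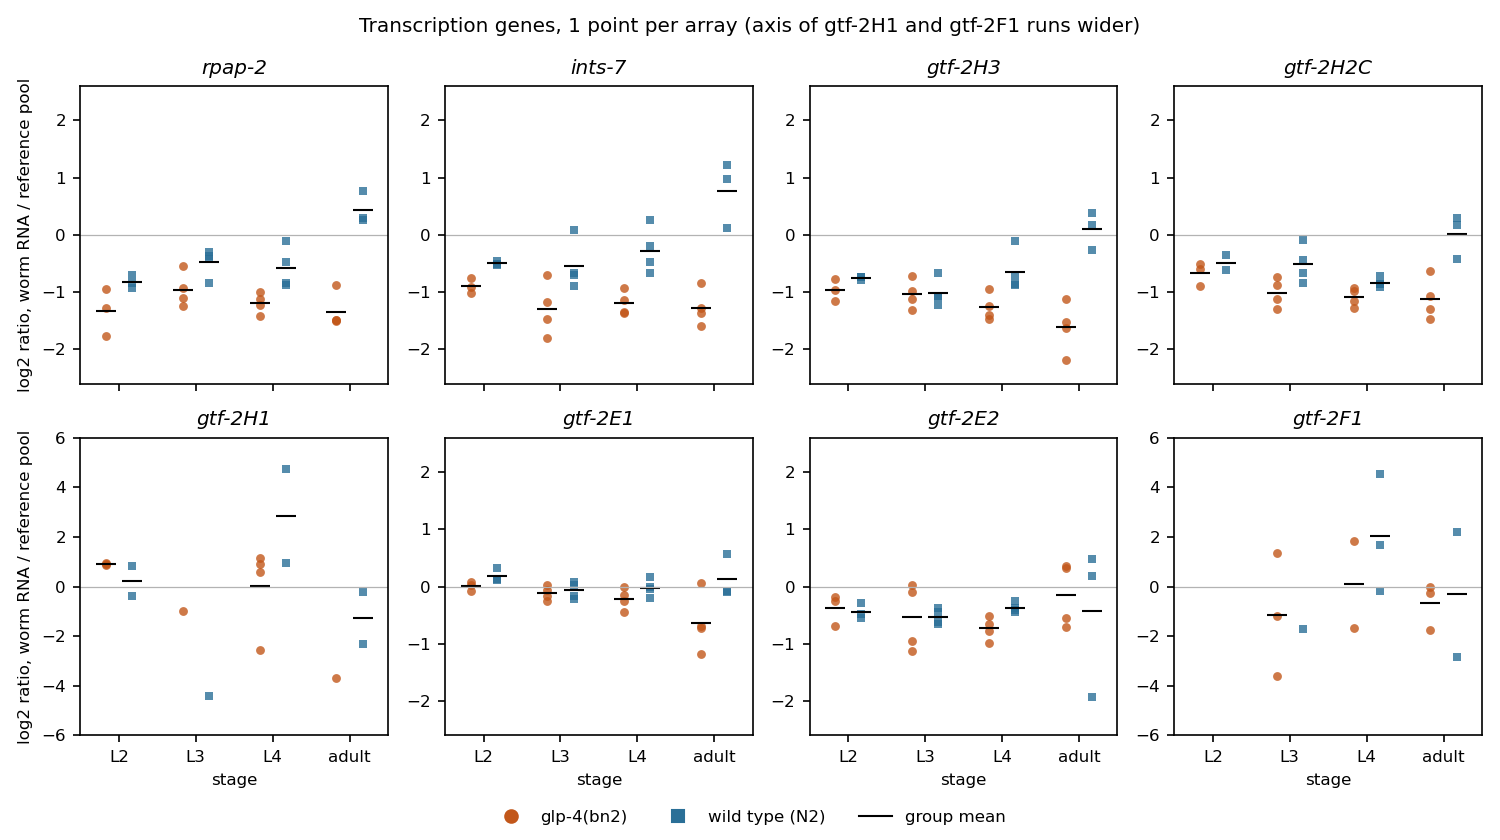
Log2 ratio of worm RNA over the reference pool (vertical axis) by stage (horizontal axis) for each of the 8 genes, with 1 point per array for glp-4(bn2) worms (orange circles) and wild-type worms (blue squares) and a black line at the mean of each group with at least 2 values. In rpap-2, ints-7, gtf-2H3 and gtf-2H2C the glp-4 adults lie below every wild-type adult, gtf-2E2 overlaps, and gtf-2H1 and gtf-2F1 scatter on an axis that runs wider.

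At L4, 3 of the 8 genes were lower in glp-4 than in wild-type larvae, where 11.8% of the 11220 probes tested were lower. Among tested probes with a gene-class symbol, 106 of 815 were lower. Ratios of ints-7 were -1.36, -1.38, -0.93 and -1.14 in glp-4 L4 larvae, against -0.20, 0.26, -0.68 and -0.48 in wild-type L4 larvae. No array overlapped, and ints-7 differed by -0.92 ± 0.26 (SE, n = 4 each; limma, adjusted p = 0.0122). The ratios of gtf-2H3 were -1.48, -1.39, -1.25 and -0.95 in glp-4, against -0.72, -0.11, -0.86 and -0.88 in wild type, a difference of -0.63 ± 0.21 (SE; limma, adjusted p = 0.0363). Those of rpap-2 were -1.43, -1.23, -0.99 and -1.12 in glp-4, against -0.48, -0.10, -0.88 and -0.84 in wild type, a difference of -0.62 ± 0.21 (SE; limma, adjusted p = 0.0379). Groups that do not overlap were common at L4, since 14.6% of the probes had every glp-4 array below every wild-type array.

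These L4 calls changed with the arrays and with the fit. The share of all probes called in these other fits is not given here, so a lost call need not be particular to these genes. In each of the 3 genes the highest value was wild-type L4 replicate 2, and without that array 0 of the 8 were called, with differences of -0.75 for ints-7, -0.45 for gtf-2H3 and -0.46 for rpap-2 (limma, adjusted p = 0.0652, 0.174 and 0.17). Over all probes that array had a median Pearson correlation of 0.60 with the wild-type adults, against 0.32 to 0.47 for the other wild-type L4 arrays. Leaving out glp-4 L4 replicate 1, glp-4 L4 replicate 2 or wild-type L4 replicate 1 left ints-7 as the 1 gene called. The call on gtf-2H3 was also lost without glp-4 L4 replicate 3 (limma, adjusted p = 0.0646), that on rpap-2 without glp-4 L4 replicate 4 (0.0609), and that on ints-7 without the 4 arrays of disagreeing labels (0.0518). With every array kept, gtf-2H3 and rpap-2 missed the threshold after quantile normalization (limma, adjusted p = 0.0975 and 0.0874) and when only the L4 arrays were fitted (0.0749 and 0.0688). Values of gtf-2H1 at L4 were 0.92, 1.17, 0.60 and -2.56 in glp-4, against 0.94 and 4.73 on 2 wild-type arrays, a difference of -2.80 ± 1.19 (SE; limma, adjusted p = 0.136) with overlap. Within a reference wording, with 2 arrays a strain, 0 were called. There the differences under the mixed control wording were -1.14 for ints-7, -0.68 for gtf-2H3 and -0.71 for rpap-2, and those under REF-vjr were -0.70, -0.57 and -0.53 in the same order of genes.

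At L3, 0 of the 6 genes tested were called, and 3.23% of the probes tested were called in either direction. The largest differences were -0.75 ± 0.26 for ints-7, -0.50 ± 0.19 for gtf-2H2C and -0.48 ± 0.21 for rpap-2 (SE, n = 4 each; limma, adjusted p = 0.11, 0.166 and 0.232), and these 3 had an unadjusted p under 0.05. Ratios of ints-7 were -1.81, -0.71, -1.17 and -1.48 in glp-4 L3 larvae, against -0.67, 0.08, -0.69 and -0.89 in wild-type L3 larvae, with 1 glp-4 array inside the wild-type range. For gtf-2H3 the strains gave -0.02 ± 0.21 (SE; limma, adjusted p = 0.977) at this stage, with a 95% interval of -0.46 to 0.41. At L2, 0 of 7 were called, 0.419% of the probes were called in either direction, and rpap-2 was the 1 member with an unadjusted p under 0.05, at -0.51 ± 0.24 (SE, n = 3 each; limma, adjusted p = 0.454).

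The change of the strain difference between stages was tested itself. From L4 to adults the difference became more negative by 1.16 for rpap-2, as its contrast was -1.16 ± 0.31 (SE; limma, adjusted p = 0.0273), and the contrast for gtf-2H3 was -1.08 ± 0.31 (SE; limma, adjusted p = 0.0383). That is 2 of 7 tested, where 4.88% of the 11043 probes tested were called in that direction. Among tested probes with a gene-class symbol, 65 of 804 were called in that direction. For ints-7 and gtf-2H2C the contrasts were -1.12 ± 0.38 and -0.88 ± 0.28 (SE; limma, adjusted p = 0.0754 and 0.0645), so a step of like size missed the threshold. With the worm batch number as a replicate block, the contrast of gtf-2H3 was -1.09 and missed the threshold (limma, adjusted p = 0.0501). The calls also depended on single arrays, and the share of all probes called without each array is not given here. The count was 0 without wild-type adult replicate 4, glp-4 adult replicate 2, wild-type L4 replicate 3 or 4, or glp-4 L4 replicate 3 or 4. It was 1 without wild-type adult replicate 2, glp-4 adult replicate 4, glp-4 L4 replicate 2 or wild-type L4 replicate 1, and 4 without wild-type adult replicate 3. The contrast of gtf-2H2C also passed without glp-4 adult replicate 1, that of ints-7 without wild-type L4 replicate 2 and that of gtf-2E1 without glp-4 adult replicate 3 (limma, adjusted p = 0.0229, 0.03 and 0.0417). With every array kept, that of gtf-2H2C passed after quantile normalization, at -0.88 (limma, adjusted p = 0.0494). From L2 to L3 and from L3 to L4, 0 members were called; limma called 0 of 10181 probes in the first of these steps, where 795 had an unadjusted p under 0.05, and 2.63% of the probes in the other.

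**Figure D2:**
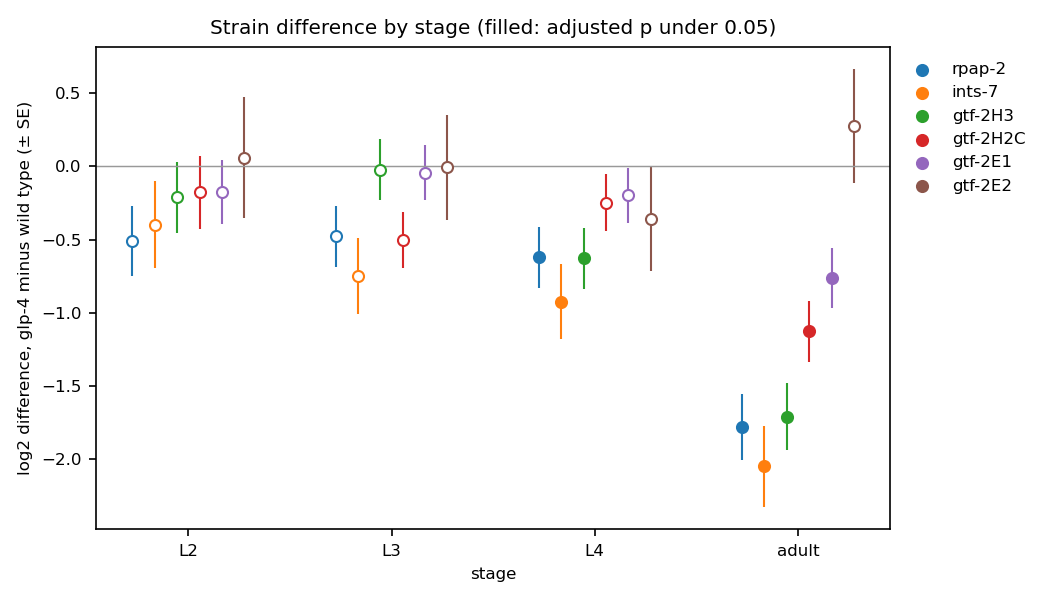
Log2 difference of glp-4 minus wild-type worms (vertical axis, points with standard error bars) at each stage (horizontal axis) for the 6 genes with a value on at least 28 of the 29 reference arrays; filled points have a limma adjusted p under 0.05. The differences of rpap-2, ints-7, gtf-2H3, gtf-2H2C and gtf-2E1 are most negative in adults, and that of gtf-2E2 lies between -0.36 and 0.28.

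Within wild type, 4 of the 8 genes were higher in adults than at L4 and 0 were lower, where 10.2% of the 11255 probes tested were higher. Among tested probes with a gene-class symbol, 117 of 823 were higher. The differences were 1.01 ± 0.23 for rpap-2, 1.05 ± 0.28 for ints-7, 0.85 ± 0.21 for gtf-2H2C and 0.73 ± 0.23 for gtf-2H3 (SE, n = 3 and 4; limma, adjusted p = 0.0031, 0.00975, 0.00652 and 0.0233). The same wild-type adult and L4 arrays enter the strain comparisons above, so these are not independent of them. Leaving out wild-type adult replicate 4 left rpap-2 as the 1 gene called, and leaving out wild-type adult replicate 2 left rpap-2 and gtf-2H2C. A fit of these 7 arrays alone called 0 of the members. How many of all probes were called in these fits is not given here, so such losses need not be particular to these genes. The call on gtf-2H3 was lost as well without wild-type L4 replicate 1, 3 or 4 (limma, adjusted p = 0.0508, 0.0727 and 0.0678). Without the 4 arrays of disagreeing labels, of which 2 are wild-type L4 arrays, gtf-2H3 at 0.58 and ints-7 at 0.98 were not called (limma, adjusted p = 0.162 and 0.0875). The sparsely measured gtf-2H1 had a difference of the opposite sign, with -0.22 and -2.32 on 2 wild-type adult arrays and 0.94 and 4.73 on 2 wild-type L4 arrays, a difference of -4.11 ± 1.37 (SE; limma, adjusted p = 0.0564). It was called lower without wild-type L4 replicate 2 (limma, adjusted p = 0.0494), an array that held no value for it. Since the reference wording differed between adults and part of the L4 arrays, it was also fitted as a covariate, and then 4 genes were again called. Within glp-4, 0 of the 7 genes tested were called between L4 and adults, where 8.04% of the probes were called in either direction. The differences there were -0.15 ± 0.21 for rpap-2, -0.08 ± 0.26 for ints-7, -0.03 ± 0.19 for gtf-2H2C and -0.35 ± 0.21 for gtf-2H3 (SE, n = 4 each). The 95% interval for ints-7 in glp-4 reached from -0.61 to 0.46. Without glp-4 adult replicate 3, gtf-2E1 was called lower in glp-4 adults than at L4, at -0.65 (limma, adjusted p = 0.0164). Between L2 and L3 and between L3 and L4, 0 members were called in either strain, where 10.3% and 0.367% of the probes tested were called in glp-4 and 0.181% and 7.25% in wild type.

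Ordered by mean ratio over the 8 groups, wild-type adults were the highest group for rpap-2, ints-7, gtf-2H3 and gtf-2H2C. The order runs across reference wordings, which were mixed control on all adult arrays, REF-vjr on all L2 arrays and both at L3 and L4. Stage and wording therefore cannot be told apart between adults and L2 larvae. For rpap-2 all 3 wild-type adult arrays lay above every array of the next group, while for the other 3 genes they overlapped with it. The lowest group was glp-4 adults for rpap-2, gtf-2H3 and gtf-2H2C and glp-4 L3 larvae for ints-7, and below the wild-type adults every pair of neighbours in the order overlapped for these 4 genes. For gtf-2E1 the means ran from 0.19 in wild-type L2 larvae down to -0.63 in glp-4 adults, and for gtf-2E2 from -0.14 in glp-4 adults down to -0.73 in glp-4 L4 larvae, with overlap between all neighbours.

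Sperm-making fem-3 worms had less of the same 3 leading RNAs than oocyte-making fem-1 worms. Of the 8 genes, 3 were lower in fem-3 and 0 were higher, where 15.5% of the 13284 probes tested were lower. Among tested probes with a gene-class symbol, 196 of 955 were lower. The ratios of rpap-2 on the 5 arrays were -1.13, -1.62, -1.93, -1.18 and -1.26, all on the fem-1 side, with a mean of -1.42 ± 0.17 (SE, n = 5; limma, adjusted p = 8.44e-04). Those of gtf-2H3 were -0.99, -1.03, -1.74, -1.02 and -0.94, with a mean of -1.14 ± 0.16 (SE; limma, adjusted p = 0.00219). For ints-7 they were -0.23, -1.29, -1.55, -1.07 and -1.25, with a mean of -1.08 ± 0.21 (SE; limma, adjusted p = 0.00752), and the value nearest 0 came from replicate 1. That array was scanned with another program, and per its labels only its normalised ratios are valid.

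The remaining genes did not pass the test. Ratios of gtf-2H2C were -0.51, -0.04, -0.32, -0.16 and -0.64, all negative, with a mean of -0.33 ± 0.14 (SE; limma, adjusted p = 0.114). All 5 fem arrays were of 1 sign toward fem-1 for 19.5% of the probes. The ratios of gtf-2E1 were -0.66, -0.22, 0.17, 0.21 and -0.06, and those of gtf-2E2 were -0.18, 0.32, 0.78, 0.78 and 0.46. Their means were -0.11 ± 0.17 and 0.43 ± 0.18 (SE; limma, adjusted p = 0.627 and 0.103). The mean of gtf-2H1 was 0.16 ± 0.18 on 4 arrays and that of gtf-2F1 was -0.39 ± 0.21 on 3 (SE; limma, adjusted p = 0.515 and 0.202). Without replicate 1, gtf-2E2 was called higher in fem-3, at 0.58 (limma, adjusted p = 0.0308). The median over all probes tested was 0.16, and with each array centred on its own median rpap-2 stood at -1.56, gtf-2H3 at -1.28 and ints-7 at -1.21. Under that centring gtf-2H2C also passed, at -0.47 (limma, adjusted p = 0.0496), and gtf-2H1 turned to -0.04 without passing. The centred mean of gtf-2E2 over all 5 arrays was 0.29 (limma, adjusted p = 0.19). Replicate 1, without which gtf-2E2 was called, had the lowest array median, -0.09, against 0.14 to 0.32 on the others. On every array fem-3 was in red, so dye and strain cannot be told apart; replicate 3 is marked as a repeat, and without it and replicate 1 the same 3 genes were called, at -1.35 for rpap-2 and -0.99 for gtf-2H3 (limma, adjusted p = 0.00651 and 0.0104), and for ints-7 with an adjusted p of 0.00665.

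**Figure D3:**
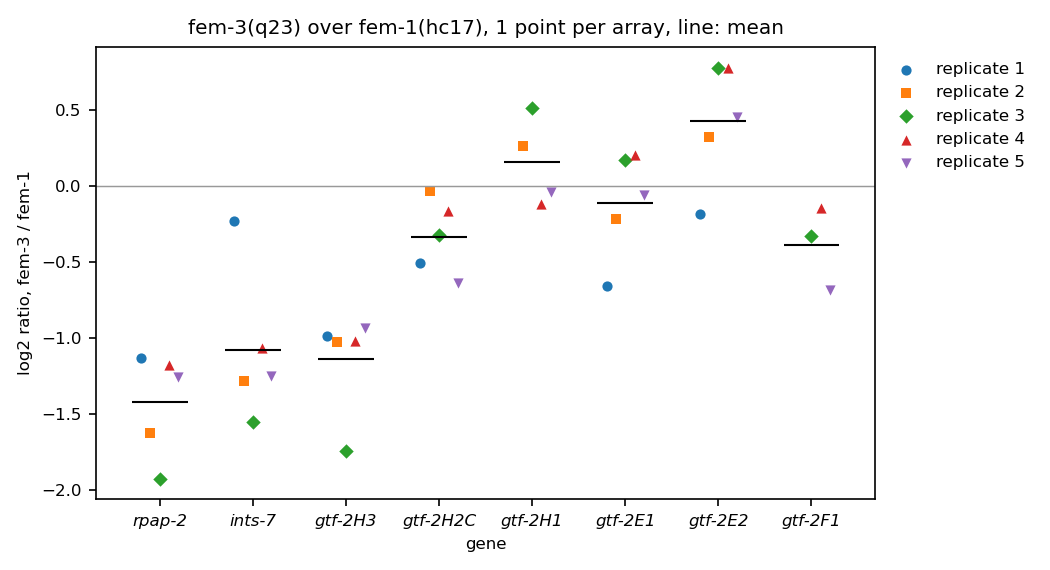
Log2 ratio of fem-3(q23) over fem-1(hc17) RNA (vertical axis) for the 8 genes (horizontal axis), with 1 point per array coloured by replicate and a black line at the mean. All values of rpap-2, ints-7, gtf-2H3 and gtf-2H2C are below 0, gtf-2E1 lies on either side of 0, and gtf-2E2 is above 0 on 4 of its 5 arrays.

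Subunits of 1 complex were compared on the same arrays. The gtf-2H3 ratio minus the gtf-2H2C ratio was -0.81 ± 0.44 (SD, n = 5) in fem-3 over fem-1, negative on 5 of 5 arrays and between -1.42 and -0.30. An exact two-sided sign-flip permutation test gave p = 0.0625, the smallest that 5 arrays allow, and 0.0833 after Benjamini-Hochberg adjustment over 4 such tests. In adults the glp-4 minus wild-type difference of gtf-2H3 minus that of gtf-2H2C was -0.58 (exact two-sided permutation p = 0.0571, adjusted 0.0833). The gtf-2E1 ratio minus the gtf-2E2 ratio was -0.54 ± 0.05 (SD, n = 5) in fem-3 over fem-1, between -0.61 and -0.47, again with the smallest possible exact permutation p of 0.0625 (adjusted 0.0833). Both TFIIE genes thus moved up and down together over the fem arrays at a nearly constant distance. The medians of all probes on fem replicates 1 to 5 were -0.09, 0.14, 0.32, 0.16 and 0.14, and these ratios were not centred. Whether such array-wide shifts move both genes was not tested. None of these 4 tests passed the threshold, and none could have passed it after adjustment. The smallest possible exact permutation p was 0.0625 for the fem arrays and 0.0286 for the adults. These tests therefore do not decide whether the subunits differ.

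Set side by side, rpap-2, gtf-2H3 and ints-7 were lower both in glp-4 adults and in fem-3 worms, which are comparisons with no array in common. That is 3 of the 7 members tested in both, where 10.6% of the 11383 probes tested in both were lower in both. The members were chosen with earlier results of these data known, so this count is a description and not a test of the set. The genes gtf-2H2C and gtf-2E1 were lower in glp-4 adults and not called in fem-3 worms, as were 6.04% of the probes. None of the members was lower in glp-4 adults and higher in fem-3 worms, the pattern of 3.69% of the probes.

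Other transcription genes were taken from a written list of 176, of which 5 were on the arrays (ints-2, ints-4, ints-13, rpap-3 and spt-16), and 3 more were added from the names on the arrays (tif-1A, tceb-3 and snpc-1.4). They were chosen with earlier results of these data known, so their counts are not independent of the data. In adults 4 of 4 tested genes of the list were lower in glp-4 than in wild type, with a median of -1.31, and ints-4 was not tested. Over all probes tested 20.3% were lower and the median was 0.17, and 239 of 826 probes with a gene-class symbol were lower. The largest was rpap-3, known from human cells as part of a chaperone complex that assembles polymerases, at -1.67 ± 0.28 (SE; limma, adjusted p = 5.04e-05). Its ratios were -1.43, -1.85, -0.84 and -1.31 in glp-4 adults, against 0.25, 0.02 and 0.66 in wild-type adults. The Integrator genes ints-2 and ints-13 differed by -1.401 ± 0.28 and -0.85 ± 0.27 (SE; limma, adjusted p = 3.01e-04 and 0.0155), and the arrays of ints-13 overlapped. The gene spt-16, part of the histone chaperone FACT, differed by -1.22 ± 0.24 (SE; limma, adjusted p = 3.19e-04).

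The 3 added genes were also lower in glp-4 adults, against the same 20.3% of all probes. They were snpc-1.4, a subunit of the complex that starts small nuclear RNA genes, at -1.17 ± 0.19, tceb-3, which encodes the elongation factor elongin A, at -0.76 ± 0.15, and tif-1A, a factor of RNA polymerase I, at -0.73 ± 0.14 (SE; limma, adjusted p = 3.92e-05, 3.33e-04 and 1.76e-04). At L4, 1 of 4 and 0 of 3 were lower, the 1 being spt-16 at -0.73 ± 0.23 (SE; limma, adjusted p = 0.0233), where 11.8% of all probes tested were lower. At L3 and L2 0 were called in either group, where 3.23% and 0.419% of the probes were called in either direction. In fem-3 against fem-1, 2 of 5 genes of the list were lower and 0 of the 3 added genes, against 15.5% of all probes tested. The 2 were rpap-3 at -0.88 ± 0.16 and ints-2 at -0.52 ± 0.13 (SE, n = 5; limma, adjusted p = 0.00545 and 0.0205), and ints-4 and ints-13 had means of 0.12 ± 0.18 and 0.22 ± 0.29. The mean of ints-13 rested on replicate 5, at 1.53, since its median over the 5 arrays was -0.07.

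**Figure D4:**
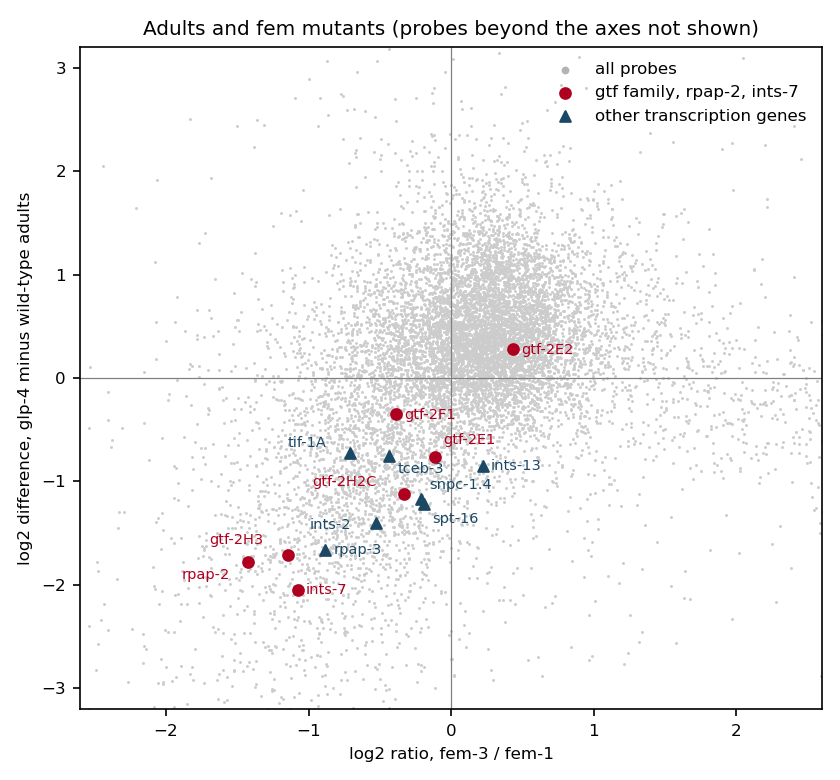
Log2 difference of glp-4 minus wild-type adults (vertical axis) against the log2 ratio of fem-3 over fem-1 (horizontal axis), for the 7 genes tested in both (red circles), the 7 other transcription genes tested in both (blue triangles) and all probes (grey). Of the red circles, gtf-2E2 lies in the upper right and all others in the lower left, with rpap-2, gtf-2H3 and ints-7 farthest out. The blue triangles lie in the lower left except ints-13, which lies in the lower right.

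Over the reference arrays the leading genes moved together, which is given as a description because the arrays share strain and stage groups and a reference. Pearson's r was 0.84 between rpap-2 and ints-7, 0.78 between rpap-2 and gtf-2H3 and 0.77 between gtf-2H3 and ints-7 over 29 arrays. It was 0.79 between gtf-2H2C and rpap-2 over 28. After the mean of each group was removed, the same pairs had 0.51, 0.41, 0.21 and 0.64. The TFIIE subunits went the other way, with r = -0.51 between gtf-2E1 and gtf-2E2 and -0.64 within groups over 29 arrays. On the fem arrays their uncentred ratios moved together instead. Wild-type adult replicate 4 had the highest gtf-2E1 value of all reference arrays, 0.57, and the lowest gtf-2E2 value, -1.92. Among glp-4 adults, replicate 3 had the highest gtf-2E1 value, 0.06, and the lowest gtf-2E2 value, -0.71. The r over the larval arrays alone was not computed, so how far such adult arrays carry it is not known.

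**Figure D5:**
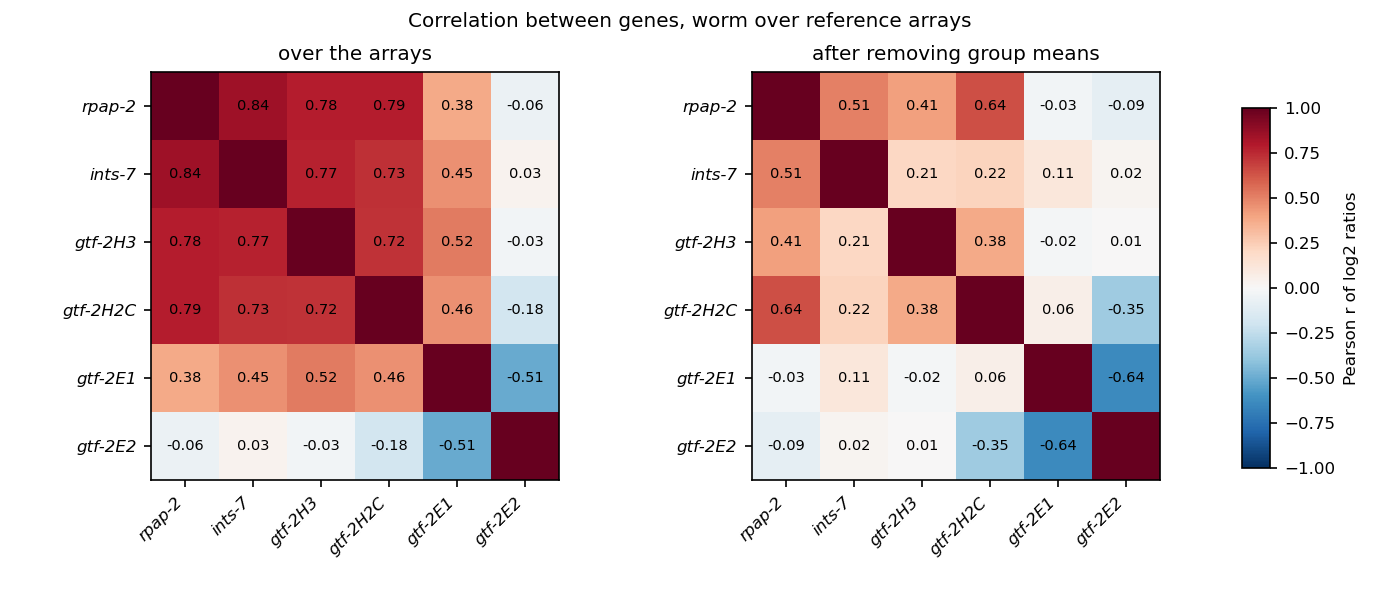
Pearson correlation of log2 ratios between the 6 genes with a value on at least 28 of the 29 reference arrays (rows and columns are genes, colour and number are r), over the arrays (left) and after the mean of each strain and stage group was removed (right). The block of rpap-2, ints-7, gtf-2H3 and gtf-2H2C has r of at least 0.72 on the left and 0.21 to 0.64 on the right, and gtf-2E1 and gtf-2E2 are negatively correlated on both sides.

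By the same measure, and among 766 other genes with a gene-class symbol, the patterns most like rpap-2 were those of sut-6, mob-4 and cwf-19L1, with r of 0.94, 0.92 and 0.91. Those most like ints-7 were ogr-2, nse-4 and melo-2, with 0.93, 0.92 and 0.92, and those most like gtf-2H3 were tost-1, gcna-1 and lotr-1, with 0.89, 0.88 and 0.88. Each r was over 28 or 29 arrays, and the median r with all 10468 probes compared was -0.12 for rpap-2, -0.09 for ints-7 and -0.11 for gtf-2H3. The genes tost-1, lotr-1 and nse-4 are among the 7 germline markers named above. Among all probes compared, tost-1 ranked 13 and lotr-1 ranked 23 for gtf-2H3, and nse-4 ranked 17 for ints-7. None of the genes named for rpap-2 is such a marker. Members and markers were both chosen with earlier results of these data known, so the match is a description only.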

How the data were processed

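Members, gene lists and tests were chosen with earlier results of these data known. The deposited table holds 1 log2 ratio of red over green per probe and array, made by the authors; per the labels, arrays were scanned with GenePix, or with ScanAlyze for fem-3 against fem-1 replicate 1. The sources used here do not give the authors' normalization, spot filters or the base of the logarithm. Per the labels red held the reference pool on 29 arrays, so their signs were turned to worm over reference. Symbols came from the platform annotation (5582 of 13323 probes named) and were updated by gene ID (5559 matched, assembly WBcel235).

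With limma 3.58.1 in R 4.3.3, the 29 arrays were fitted as 8 group means (prior degrees of freedom 2.4) and the 5 fem arrays as a mean against 0 (2.9). Tests needed 2 values per group, or 3 on fem arrays; they were two-sided, in 14 comparisons, each adjusted over all its probes at 0.05. Errors are standard errors of the fit unless given as SD, precision is limited by the number of arrays, and the code was tested on simulated data. Named genes were all members, up to 6 listed transcription genes by adult adjusted p and 3 by fem adjusted p, the 3 added ones, and the 3 symbols of highest r with each of rpap-2, ints-7 and gtf-2H3 over at least 24 arrays. Germline, sperm, oocyte and intestine lists served as a check; 3 of 3 intestine genes were higher in glp-4 adults, and 6 of 10 sperm genes were lower. Alternatives were median centring, quantile normalization, a robust trended prior, only the arrays compared, complete probes, worm batch number as a block, reference wording as a covariate or alone, arrays with disagreeing labels left out, and each array left out. The labels number the arrays by worm batch without saying whether a number was shared between strains; deviations of same-numbered arrays correlated from -0.19 to 0.35, and from 0.06 to 0.22 between strains at L4.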

Additional observations from a re-analysis of the deposited data

Results flagged for a closer look

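Of 38 combinations of a gene and a group of 4 or 5 arrays, 3 had 1 array far from the rest, and chance alone gives such a gap in about 1 in 20. For gtf-2H1, glp-4 L4 replicate 4 was at -2.56 where the other 3 lay between 0.60 and 1.17. For gtf-2H3, fem replicate 3, the array marked as a repeat, was at -1.74 where the other 4 lay between -1.03 and -0.94. For rpap-2, glp-4 adult replicate 1 was at -0.87 where the other 3 lay between -1.51 and -1.49. The strain difference of glp-4 minus wild type differed between adults and L4 by -1.08 for gtf-2H3 and by -1.16 for rpap-2 (limma interaction, adjusted p = 0.0383 and 0.0273).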

How the results depend on the processing

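Of 260 alternatives of the 17 calls on single members, 201 kept direction and call, and 0 changed sign; of 1263 alternatives of the 78 results that were not called, 1253 stayed uncalled. The adult strain count of 5 stayed between 4 and 5 and the fem count of 3 between 3 and 4 under all alternatives run, with gtf-2H2C (lower, after median centring) or gtf-2E2 (higher, without replicate 1) as the fourth. The L4 strain count of 3 was 1 after quantile normalization, 1 with only the arrays compared and 0 within the mixed control or the REF-vjr wording, and ran from 0 to 3 when single arrays were left out. The adult minus L4 change of the strain difference, 2 genes, was 1 after median centring, 1 with the replicate block, 0 with only the arrays compared and 1 without the 4 arrays whose labels disagree, and ran from 0 to 4 with single arrays left out. After quantile normalization gtf-2H2C was called in addition. Adult minus L4 in wild type, 4 genes, was 0 with only the arrays compared and 2 without the 4 arrays, and ran from 1 to 5, where the count of 5 includes gtf-2H1 as lower in adults; in glp-4 the count of 0 ran from 0 to 1. For these changes the cause was not tested, except that fewer arrays entered the fits of fewer arrays. The share of all probes called under each alternative is not given here. The replicate block, worm batch number, gave the same count as the fit without it in every other comparison to which it was applied, 3 at L4 and 5 in adults, and gtf-2H3 in the adult minus L4 change was the 1 member whose call it changed. Signal over background was not analysed here, so no limit from dim spots can be given, which bears most on gtf-2H1 and gtf-2F1.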
